A study of Mus musculus with 48 samples.

Results

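Dbp, Tef, Hlf and Nfil3 are the transcription factor genes that carry the phase of the circadian clock to its output genes, and their RNA was followed here in pancreatic α and β cells around the clock. They were chosen by gene symbol, and all 4 were found, each in 1 row, among the 42713 genes of the count tables. RNA had been sequenced from glucagon-releasing α cells and insulin-releasing β cells, sorted by fluorescence from islets of male mice aged 6 to 8 weeks. Animals of every group carried the ProGcg-Venus and RIP-Cherry reporters that mark α and β cells, the clock reporter PER2::Luc, and Insulin-rtTA together with TET-DTA, through which doxycycline turns on diphtheria toxin A under insulin-driven control and kills β cells. Treated mice drank water with 2% sucrose to which 300 mg of doxycycline had been added, and control mice drank the sucrose water alone. The interval between doxycycline and collection was not given in the sources used here. The mice were kept in a cycle of 12 h light and 12 h dark, with food offered only at night from 10 days before the experiment to its end, and part of them had been entrained to inverted light and feeding cycles for 2 weeks. Cells were collected every 4 h at zeitgeber times (ZT, hours after lights on) 0, 4, 8, 12, 16 and 20, with 2 libraries for each cell type, treatment and time. The 4 conditions (control α, doxycycline α, control β and doxycycline β) therefore hold 12 libraries each, 48 in all.

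Dbp, Tef and Hlf encode the PAR bZIP proteins, activators with a basic leucine zipper and a region rich in proline and acidic residues, which bind D box elements in DNA. NFIL3, also called E4BP4, is a related basic leucine zipper protein that binds the same element and represses. In the textbook clock, the CLOCK and BMAL1 activators (Clock and Arntl) drive PAR bZIP genes such as Dbp through E boxes, while the REV-ERB repressors (Nr1d1 and Nr1d2) and the ROR activators control Nfil3 through the RORE element, so that the activators and their rival peak in opposite parts of the day. D boxes lie in Per genes and in genes of lipid, vitamin and xenobiotic metabolism.

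By the coordinates in the count tables (GRCm38), Dbp (ENSMUSG00000059824.12) lies at chr7:45705088-45710203 on the plus strand, and Tef (ENSMUSG00000022389.14) at chr15:81802421-81826861 on the plus strand. Hlf (ENSMUSG00000003949.16) lies at chr11:90336536-90390895 on the minus strand, and Nfil3 (ENSMUSG00000056749.7) at chr13:52967209-52981073 on the minus strand. All 4 are protein-coding. Promoter windows of 300 bases from RefSeq (GRCm38.p6) were found for every gene, 1 each for Dbp, Hlf and Nfil3 and 2 for Tef. They were searched on both strands for the E box CACGTG, the RORE core TAGGTCA and the D boxes TTATGTAA and TTACGTAA. The 3 stretches that held a match are shown because these elements link the clock loop to the factors followed here; each is written 5′ to 3′ on the strand of its gene with the matched letters in capitals, and none held a second motif.
Tef, first window, E box at chr15:81802546-81802551: tgctgtggctcCACGTGctgcagctggc
Tef, second window, E box at chr15:81811276-81811281: acctggcccagCACGTGtctacatcgtt
Nfil3, RORE core read from the other strand at chr13:52981045-52981051: gcgctcggaacTGACCTActaacacacat

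The first Tef match lay 127 bases downstream of the nearest annotated transcript start, inside an untranslated exon of 1 of 10 annotated transcripts, and the second lay 136 bases upstream of one, outside every annotated exon. The Nfil3 match lay 25 bases downstream of the start of its only annotated transcript, in an untranslated exon. The windows of Dbp and Hlf held none of the letters searched, and no window held a D box. Of 32851 mouse promoter windows of the same length, 7.15% held CACGTG, 2.606% TAGGTCA, 0.9376% TTATGTAA and 0.1187% TTACGTAA.

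Library totals of the estimated counts lay between 16138312 and 28599963 in the 20 libraries of the earlier sequencing run, which holds replicate 1 of ZT4 to ZT20, and between 37395994 and 69948237 in the 28 libraries of the later run. The counts of the 4 genes lay between 80 (the lowest of Nfil3) and 7493 (the highest of Tef) in a library, so none was near the detection limit. Sorting labels were checked on marker genes. The summed level of 10 β-cell markers (Ins1, Ins2, Mafa and others) was 249217 to 438403 CPM (counts scaled to a common library size) in control β cells and 1026 to 4755 CPM in control α cells, and that of 7 α-cell markers (Gcg and others) was 247716 to 396134 CPM in control α cells and 357 to 859 CPM in control β cells. After doxycycline the α-cell marker sum was 1432 to 3657 CPM in sorted β cells, above its control range. The β-cell marker sum was then 1023 to 3902 CPM in sorted α cells. Sums of 4 δ- and PP-cell markers in sorted α cells were 15512.6 to 35992.5 CPM without and 22678 to 40831 CPM with doxycycline. Acinar sums of treated mice reached 7412 CPM (α) and 5164 CPM (β), with medians of 116 and 10.9 CPM. In control mice they reached 971 and 271 CPM. Whether replicates are separate animals is not stated, so every p-value here is set by library-to-library spread, which may be technical. No group received doxycycline without the toxin genes, so the drug and the ablation cannot be told apart.

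In 2 control β libraries, replicate 1 of ZT16 and of ZT20, both from the earlier run, clock genes stood apart from the other 10 libraries of that condition. Hlf reached 67.3 and 63.9 CPM there against 12.0 to 36.7 CPM in the others. Nr1d1, a gene that peaks by day in the control α cells of this study, reached 466 and 511 CPM against 33.0 to 348 CPM, and Ciart, another E box gene, 58.2 and 59.8 CPM against 4.65 to 25.8 CPM. The immediate early gene Nr4a3 was at 4.08 and 6.78 CPM against 0.185 to 1.66 CPM. Arntl, at 14.4 and 18.8 CPM, lay within the range of the others. Their summed β-cell markers (275054 and 283082 CPM) also lay within the range of the others. The summed level of 14 macrophage and dendritic cell markers was 180 and 391 CPM against 51.9 to 320 CPM in the others, that of the C/EBP relatives 137 and 161 CPM against 75.5 to 124 CPM, and that of 12 metabolic target genes 405 and 334 CPM against 347 to 459 CPM. Nr4a3 was chosen after its values were seen. Tests of the 4 factors that use control β cells are given with all libraries and without these 2.

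Expressed per kilobase of gene length so that genes can be compared with each other, Hlf was the lowest of the 4 in every condition by its median. In control β cells the median levels were 22.2 CPM per kb for Dbp, 13.5 for Tef, 10.38 for Nfil3 and 2.93 for Hlf. In doxycycline β cells the order of the activators and their rival differed: Nfil3 came first with 13.9 CPM per kb, ahead of Dbp (9.19), Tef (6.88) and Hlf (1.61). In α cells of control and doxycycline mice the order was Nfil3, Tef, Dbp and Hlf, with medians of 8.60, 8.05, 7.78 and 3.88 CPM per kb in controls and 11.4, 6.48, 5.56 and 3.66 CPM per kb after doxycycline. Because each gene moves with the time of day, the ranges of neighbours in these orders overlapped, with 1 exception. In doxycycline β cells the highest Hlf library (3.36 CPM per kb) lay below the lowest Tef library (3.53 CPM per kb). The order between genes was not tested.

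**Figure D1:**
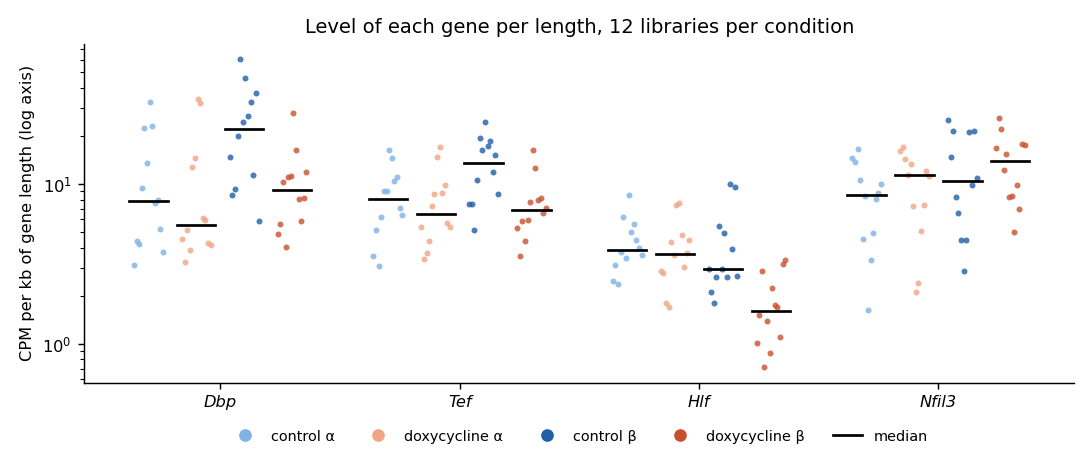
Levels of Dbp, Tef, Hlf and Nfil3 per kilobase of gene length (CPM per kb, log axis) in the 12 libraries of each condition, 1 point per library, with the median as a bar. Hlf lies lowest in every condition, and its 12 doxycycline β libraries lie between 0.713 and 3.36 CPM per kb.

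Dbp, the strongest oscillator of the PAR bZIP group in many tissues, ranged from 9.32 to 97.0 CPM in control α cells (median 23.3) and from 9.68 to 102 CPM in doxycycline α cells (median 16.6). In control β cells it ranged from 17.6 to 180 CPM (median 66.5), and in doxycycline β cells from 12.1 to 83.8 CPM (median 27.5). Control β cells thus held the highest Dbp levels of the 4 conditions, and the ranges of all conditions overlapped. At ZT12 the 2 control α libraries stood at 97.0 and 68.8 CPM and the 2 doxycycline α libraries at 102 and 95.7 CPM. At ZT0 these values were 9.32 and 13.2 CPM in control α cells and 13.5 and 9.68 CPM in doxycycline α cells. The mean of the 2 libraries spanned a 7.37-fold range in control α cells, from 11.3 CPM at ZT0 to 82.9 CPM at ZT12, and an 8.53-fold range in doxycycline α cells. Both ZT0 libraries are of the later run, while each other time averages 1 library of each run. Ranges of means that include ZT0 therefore mix run with time, here and for the other genes. In control β cells the highest mean was at ZT8 (127 CPM), where the 2 libraries were 180 and 73.6 CPM, and the lowest at ZT0 (35.0 CPM), a 3.63-fold range. In the later run alone, control β Dbp was highest at ZT12 (79.4 CPM, against 73.6 CPM at ZT8). It was lowest there at ZT20 (17.6 CPM, against 44.4 and 25.5 CPM at ZT0). In doxycycline β cells the mean went from 15.6 CPM at ZT0 to 66.2 CPM at ZT12, a 4.24-fold range. The control β replicates were far apart at night: 97.2 and 34.1 CPM at ZT16, and 111 and 17.6 CPM at ZT20, the first of each being a library that stood apart.

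Tef, a further PAR bZIP activator, ranged from 24.2 to 128 CPM in control α cells (median 63.3) and from 26.6 to 133 CPM in doxycycline α cells (median 50.9). It ranged from 40.6 to 193 CPM in control β cells (median 106) and from 27.8 to 128 CPM in doxycycline β cells (median 54.1). Its highest mean was at ZT12 in every condition: 121 CPM in control α cells, 125 CPM in doxycycline α cells, 165 CPM in control β cells and 113 CPM in doxycycline β cells. The ZT12 libraries of control β cells (193 and 136 CPM) both lay above those of doxycycline β cells (128 and 99.1 CPM). The trough was at ZT0 or ZT4, and the range from trough to peak was 3.54-fold, 3.92-fold, 2.79-fold and 3.28-fold in that order of conditions. Where the trough is at ZT0, these ranges mix run with time.

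Hlf, the third activator, ranged from 15.9 to 56.9 CPM in control α cells (median 25.9) and from 11.4 to 51.1 CPM in doxycycline α cells (median 24.4). In control β cells it ranged from 12.0 to 67.3 CPM (median 19.6), or to 36.7 CPM without the 2 libraries that stood apart (median 18.7), and in doxycycline β cells from 4.77 to 22.4 CPM (median 10.7). Doxycycline β cells thus held the lowest Hlf levels. In α cells the highest mean was at ZT12 in both treatments, 45.3 CPM in controls and 50.4 CPM after doxycycline. In control β cells it was at ZT16, where the libraries read 67.3 and 26.1 CPM, and in doxycycline β cells at ZT20, where they read 21.1 and 22.4 CPM.

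Nfil3, the repressor, ranged from 3.32 to 33.4 CPM in control α cells (median 17.4) and from 4.26 to 34.6 CPM in doxycycline α cells (median 23.0). It ranged from 5.77 to 51.2 CPM in control β cells (median 21.03) and from 10.1 to 52.5 CPM in doxycycline β cells (median 28.1). It ran against Dbp and Tef, and in α cells against Hlf: its highest mean was at ZT0 and its lowest at ZT12 in every condition. In β cells the highest Hlf means were at ZT16 (control) and ZT20 (doxycycline) instead. The Nfil3 mean at ZT0 was above that at ZT12 by 5.67-fold in control α cells, 7.40-fold in doxycycline α cells, 5.50-fold in control β cells and 3.20-fold in doxycycline β cells. These folds also mix run with time. In the later run alone, control α cells held 29.4 and 27.7 CPM at ZT0 and 6.76 CPM at ZT12. At ZT12 the 2 doxycycline β libraries (17.0 and 10.1 CPM) lay above the 2 control β libraries (5.77 and 8.99 CPM). At ZT8 they lay above them as well (31.3 and 16.8 CPM against 13.3 and 9.05 CPM), and at ZT16 below them (20.01 and 14.0 CPM against 42.9 and 20.05 CPM), there with the nearer libraries of the groups almost level.

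**Figure D2:**
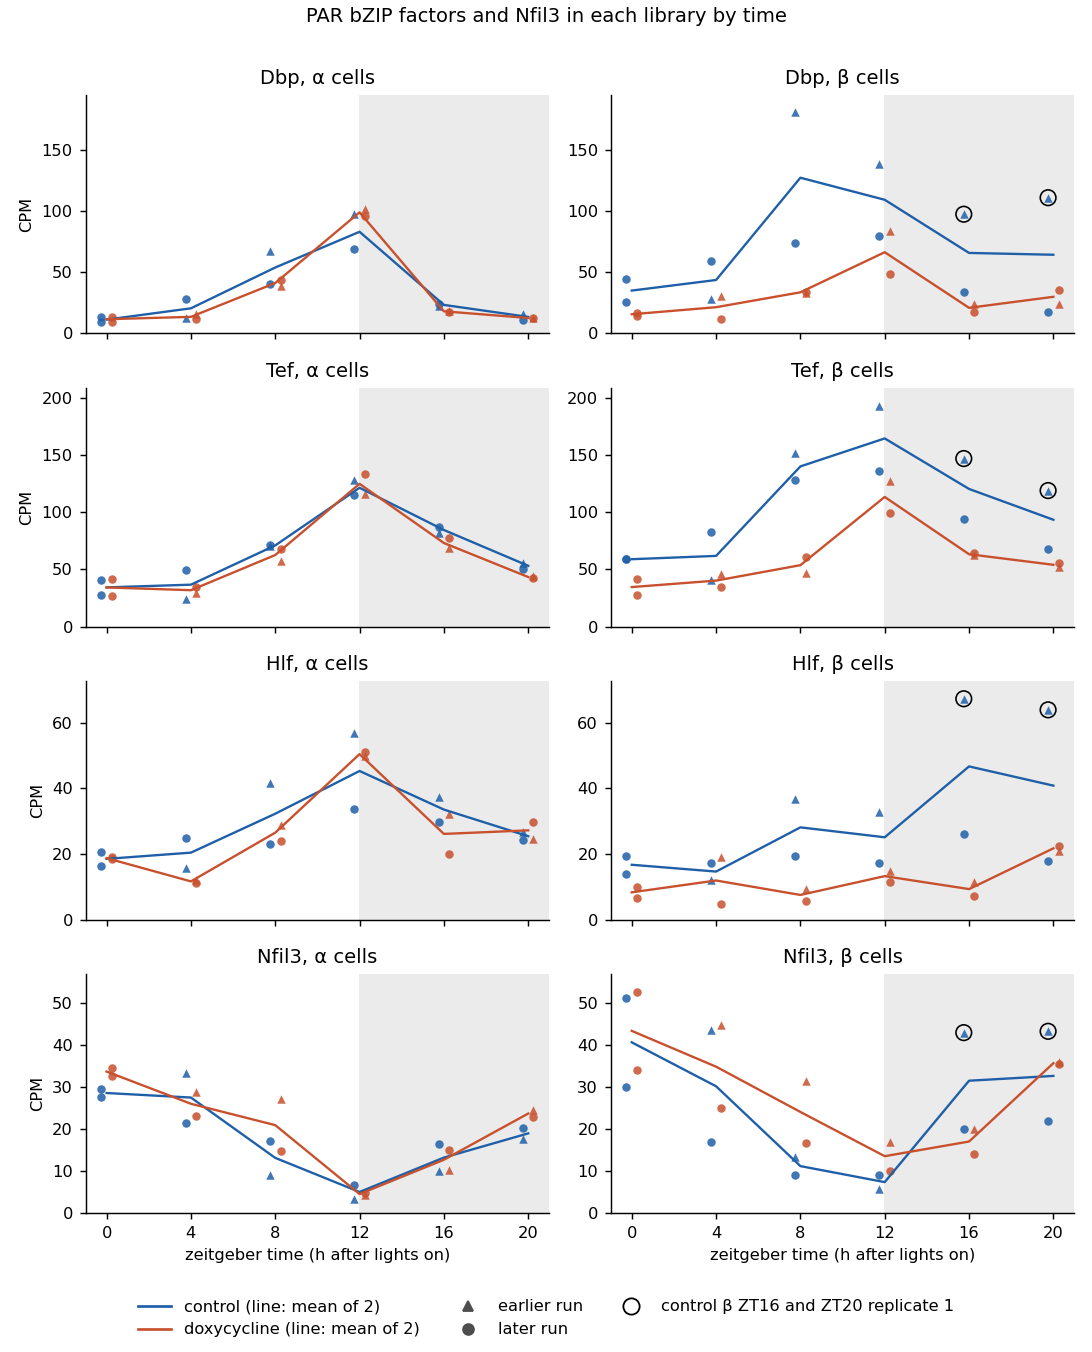
CPM of each gene in each library (points) against zeitgeber time, with the mean of the 2 libraries of a group as a line, for α cells (left) and β cells (right). Triangles are libraries of the earlier run and circles of the later run, the shaded hours are dark, and rings mark the 2 control β libraries that stood apart; Tef is highest and Nfil3 lowest at ZT12 in every panel of theirs.

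In control mice the cell types were compared to ask how the level of each factor depends on cell type. Of the activators, Dbp was 2.33-fold higher in β cells and Tef 1.59-fold higher, while no difference was called for Hlf or Nfil3. Mean levels of Dbp were 74.1 ± 50.2 CPM in β cells and 34.2 ± 28.5 CPM in α cells (SD, n = 12 each, an SD that includes the time of day), a log2 fold change of 1.22 ± 0.26 (SE, edgeR adjusted p = 0.000215). Dbp was higher in the β library in 12 of 12 pairs of the same time and replicate number. Tef averaged 107 ± 46.5 CPM in β cells and 66.9 ± 32.2 CPM in α cells, a log2 fold change of 0.67 ± 0.13 (edgeR adjusted p = 0.000108), also higher in 12 of 12 pairs. At 5 of the 6 times for Tef and 4 of the 6 for Dbp, both β libraries lay above both α libraries. Neither such separation nor such pair counts were taken over all genes, and the labels do not give these matches as pairs. For comparison, 34.2% of the 14945 genes tested were higher in β cells and 37.3% lower, so a call in this contrast is common. In bulk RNA of this kind, fewer cells of a type and less RNA per cell cannot be told apart. Markers of other cells differed in the same contrast. Of 13 tested macrophage and dendritic cell markers 10 were higher in β cells and 1 lower (median log2 fold change 3.36), with a summed level of 51.9 to 391 CPM in β cells and 43.3 to 150 CPM in α cells. All 4 δ- and PP-cell markers, 9 of 9 acinar markers and 3 of 5 stellate cell and fibroblast markers were lower in β cells, and 1 of 2 T, B and NK cell markers was higher. Of 3 ductal markers 1 was higher and 1 lower, and 0 of 3 endothelial markers were called. Their part in the differences of Dbp and Tef was not tested.

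Hlf averaged 28.7 ± 18.7 CPM in control β cells and 29.3 ± 11.7 CPM in control α cells (log2 fold change -0.18, 95% interval -0.57 to 0.20, edgeR adjusted p = 0.39). Without the 2 libraries that stood apart, the Hlf value was -0.41, lower in β cells (edgeR adjusted p = 0.017), and in the later run alone it was -0.40 (edgeR adjusted p = 0.00832). The 2 libraries held the highest Hlf levels of control β cells and were set apart partly by Hlf. Setting them aside therefore lowers the Hlf value by construction, and the call without them is no separate test. In the earlier run alone the value was 0.13 (edgeR adjusted p = 0.69). Nfil3 averaged 25.6 ± 16.01 CPM in β cells and 17.7 ± 9.36 CPM in α cells (log2 fold change 0.42, 95% interval -0.01 to 0.85, edgeR adjusted p = 0.0745). The 2 runs differed for Nfil3, with 1.01 in the earlier run (edgeR adjusted p = 0.00271) and 0.06 in the later (edgeR adjusted p = 0.766). Dbp and Tef were higher in β cells in both runs: by 1.56 and 0.86 in the earlier and by 0.91 and 0.54 in the later on the log2 scale, with edgeR adjusted p-values of at most 0.00101. Without the 2 libraries the values were 0.93 for Dbp (edgeR adjusted p = 0.000638) and 0.58 for Tef (edgeR adjusted p = 0.000855).

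After doxycycline Hlf and Nfil3 were the genes called between the cell types. For Nfil3 the value in control mice was 0.42, and its change between the treatments was not called (0.11, edgeR adjusted p = 0.784). Hlf was 2.20-fold lower in β than in α cells, with a log2 fold change of -1.14 ± 0.21 (edgeR adjusted p = 6.86e-05), and was lower in 11 of 12 pairs. Nfil3 was 1.47-fold higher in β cells, with a log2 fold change of 0.56 ± 0.15 (edgeR adjusted p = 0.00186), and was higher in 11 of 12 pairs. The labels do not give these matches as pairs, and such counts were not taken over all genes. Dbp (0.27, 95% interval -0.10 to 0.64) and Tef (0.03, 95% interval -0.17 to 0.23) were not called, and their intervals exclude the sizes measured in control mice. In this contrast 35.6% of the 15370 genes tested were higher in β cells and 35.7% lower. Within the runs, Hlf was lower by -0.89 in the earlier (edgeR adjusted p = 0.0344) and -1.37 in the later (edgeR adjusted p = 0.000108), and Nfil3 higher by 0.83 (edgeR adjusted p = 0.0044) and 0.37 (edgeR adjusted p = 0.0399). For Dbp and Tef the values were 0.36 and 0.12 in the earlier run and 0.14 and -0.06 in the later, none of them called. All 14 macrophage and dendritic cell markers were higher in β cells here (median 5.08), at a summed level of 124 to 1643 CPM against 64.6 to 118 CPM in α cells. All 4 δ- and PP-cell markers, 5 of 9 acinar markers and 1 of 6 stellate cell and fibroblast markers were lower, 1 of 3 ductal markers was higher, and of 2 T, B and NK cell markers 1 was higher and 1 lower. Their part in the differences of Hlf and Nfil3 was not tested.

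The next comparison asks what doxycycline did to the factors in β cells. All 3 PAR bZIP activators fell and their rival did not change detectably. Dbp fell to 44.2% of its control level, from a mean of 74.1 ± 50.2 CPM to 31.3 ± 19.6 CPM (SD, n = 12 each), a log2 fold change of -1.18 ± 0.23 (SE, edgeR adjusted p = 0.000328). Tef fell to 57.3%, from 107 ± 46.5 CPM to 59.9 ± 27.99 CPM (-0.80 ± 0.13, edgeR adjusted p = 4.25e-05). Hlf fell to 44.8%, from 28.7 ± 18.7 CPM to 12.1 ± 6.06 CPM (-1.16 ± 0.22, edgeR adjusted p = 0.000196). Nfil3 had 25.6 ± 16.01 CPM in control and 28.1 ± 13.1 CPM in doxycycline β cells, a log2 fold change of 0.28 with a 95% interval from -0.09 to 0.66 (edgeR adjusted p = 0.206). In this contrast 23.1% of the 15188 genes tested were called lower and 23.8% higher.

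Libraries of the same time and replicate number were set side by side, a match the labels do not give as a pairing. The doxycycline library was lower in 11 of 12 such pairs for Tef and in 10 of 12 for Dbp and Hlf, and Nfil3 was higher in 8 of 12. Both doxycycline libraries lay below both control libraries at 5 of the 6 times for Tef, 4 for Hlf and 3 for Dbp, and the groups overlapped at the rest. How many of all genes separate in this way or reach such pair counts was not counted. The falls were measured in each run. In the earlier run the log2 fold changes were -1.40 for Dbp, -0.86 for Tef and -1.29 for Hlf (edgeR adjusted p = 0.0147, 0.02 and 0.0315). In the later run they were -0.92, -0.72 and -1.08 (edgeR adjusted p = 0.0463, 0.00322 and 0.0109). Nfil3 was at 0.31 and 0.30 in the 2 runs. Without the 2 control libraries that stood apart, the falls were -0.98 for Dbp, -0.71 for Tef and -1.02 for Hlf, with edgeR adjusted p-values of 0.00344, 0.000458 and 0.00126, and Nfil3 was at 0.41 (edgeR adjusted p = 0.0777).

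Markers of other cells differed in the same contrast. All 14 macrophage and dendritic cell markers were higher in doxycycline β cells, with a median log2 fold change of 2.22, against -0.01 over all genes. Their summed level was 51.9 to 391 CPM in control and 124 to 1643 CPM in doxycycline β cells, and none of the 14 was at 0 throughout a condition. With the mean log2 level of these markers as a covariate, the values were -1.58 for Dbp, -1.11 for Tef and -1.27 for Hlf (edgeR adjusted p = 0.00317, 0.000462 and 0.0122). The markers themselves differ with the treatment, so this fit cannot separate their part from that of doxycycline. Of the other lists, 4 of 5 measured α-cell markers, 4 of 4 δ- and PP-cell markers and 4 of 7 stellate cell and fibroblast markers were higher, and 1 of 3 ductal markers. No acinar (9 measured) or endothelial (3 measured) marker was called, 1 of 2 T, B and NK cell markers was lower, and of 10 β-cell markers 5 were lower and 2 higher. The part of any of these lists in the members' falls was not tested.

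In α cells no change of the 4 factors was detected. The log2 fold changes were -0.19 for Dbp (95% interval -0.46 to 0.07), -0.15 for Tef (-0.33 to 0.04), -0.19 for Hlf (-0.45 to 0.06) and 0.16 for Nfil3 (-0.14 to 0.46), with edgeR adjusted p-values from 0.77 to 0.895. The intervals of the 3 activators exclude falls of the size measured in β cells. Only 0.127% of the 14932 genes tested were called in this contrast. Within the runs the 3 activators lay between -0.28 and -0.15 in the earlier and between -0.12 and -0.09 in the later, and Nfil3 was at 0.43 and -0.00. Tef was lower in the doxycycline library in 9 of 12 pairs, Hlf in 8 and Dbp in 6, and Nfil3 was higher in 8.

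The effect of doxycycline was then compared between the cell types directly, as the effect in β cells minus that in α cells in 1 fit over all 48 libraries. It differed for all 3 activators: by -0.997 ± 0.28 for Dbp, -0.67 ± 0.16 for Tef and -0.98 ± 0.26 for Hlf on the log2 scale (SE, edgeR adjusted p = 0.00716, 0.00223 and 0.00463). For Nfil3 the difference was 0.11 (95% interval -0.38 to 0.61, edgeR adjusted p = 0.784). Of 16207 genes tested, 12.8% had a β effect below the α effect and 12.7% above it. Without the 2 control libraries that stood apart the differences were -0.81, -0.59 and -0.84 (edgeR adjusted p = 0.0345, 0.00976 and 0.0153). With the macrophage and dendritic cell markers as a covariate they were -1.25, -0.85 and -1.05 (edgeR adjusted p = 0.00275, 0.00064 and 0.00995). Inside a single run they had the same sign but did not pass the threshold: -1.19, -0.71 and -1.01 in the earlier (edgeR adjusted p = 0.0737, 0.0981 and 0.135) and -0.80, -0.61 and -0.99 in the later (edgeR adjusted p = 0.225, 0.0611 and 0.0776).

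**Figure D3:**
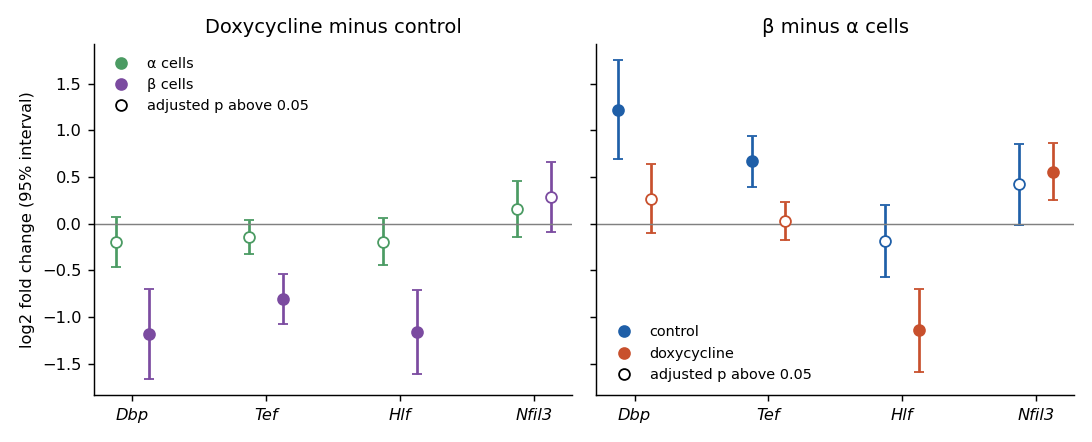
Log2 fold changes of the 4 genes with 95% intervals: doxycycline minus control in each cell type (left) and β minus α cells in each treatment (right); filled points have an edgeR adjusted p below 0.05. Dbp, Tef and Hlf fell in β cells (-1.18, -0.80 and -1.16) and were not called in α cells.

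For the rhythms, a 24 h wave (cosine and sine coefficients, tested jointly) was fitted to the 12 libraries of a condition. Its amplitude is how far the peak rises above the fitted mean on the log2 scale. In control α cells all 4 genes were rhythmic, the 3 activators around dusk and Nfil3 around dawn. Dbp peaked at ZT10.5 ± 0.43 h with an amplitude of 1.42 ± 0.16 (SE, edgeR adjusted p = 0.00181), and Tef at ZT12.9 ± 0.41 h with 0.93 ± 0.10 (edgeR adjusted p = 0.00147). Hlf peaked at ZT12.7 ± 0.79 h with a smaller amplitude of 0.53 ± 0.11 (edgeR adjusted p = 0.0418), and Nfil3 at ZT0.60 ± 0.63 h with 1.05 ± 0.18 (edgeR adjusted p = 0.0162). The peaks of the activators thus lay 9.92 h (Dbp), 11.7 h (Tef) and 11.9 h (Hlf) from that of Nfil3. Rhythms were called for 4.49% of the 13349 genes tested in control α cells.

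In doxycycline α cells all 4 genes were called as well. Dbp had an amplitude of 1.499 ± 0.20 with a peak at ZT11.1 (edgeR adjusted p = 0.00769), Tef 0.97 ± 0.10 at ZT12.8 (edgeR adjusted p = 0.00142), Hlf 0.76 ± 0.16 at ZT13.9 (edgeR adjusted p = 0.0495) and Nfil3 1.12 ± 0.20 at ZT0.83 (edgeR adjusted p = 0.032). Of the 13280 genes tested, 2.82% were called. The Hlf calls were the least certain. Leaving out 1 library at a time removed the call for Hlf in 8 of 12 cases in control and in 10 of 12 in doxycycline α cells, and that for Nfil3 in 1 and 6 of 12, whereas Dbp and Tef kept theirs in all 12 in both conditions.

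In control β cells Nfil3 alone of the 4 genes was called, with an amplitude of 1.22 ± 0.20 and a peak at ZT22.4 ± 0.63 h (edgeR adjusted p = 0.0359), where 2.17% of the 13302 genes tested were rhythmic. Tef had an amplitude of 0.69 ± 0.15 with a peak at ZT12.4 (edgeR adjusted p = 0.0598), Dbp 0.65 ± 0.25 at ZT9.99 (edgeR adjusted p = 0.252) and Hlf 0.52 ± 0.18 at ZT16.6 (edgeR adjusted p = 0.23). These fitted peaks lay 10.03 h (Tef), 11.6 h (Dbp) and 5.76 h (Hlf) from that of Nfil3. Without the 2 libraries that stood apart the amplitude of Dbp was 1.09 (edgeR adjusted p = 0.388), that of Tef 0.81 (0.177), that of Hlf 0.35 (0.752) and that of Nfil3 1.24 (0.137, all edgeR adjusted), and the number of rhythmic genes in the condition went from 288 to 2. The Nfil3 call was also lost in 8 of 12 cases when 1 library was left out.

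In doxycycline β cells Nfil3 and Tef were called, where 11.6% of the 13613 genes tested were. Nfil3 had an amplitude of 0.97 ± 0.11 with a peak at ZT0.44 ± 0.41 h (edgeR adjusted p = 0.00493), and Tef 0.69 ± 0.12 with a peak at ZT13.1 ± 0.65 h (edgeR adjusted p = 0.0173). Tef and Nfil3 peaked 11.4 h apart. Without replicate 1 of ZT20 Tef lost its call, at an amplitude of 0.70 (edgeR adjusted p = 0.0551). Dbp (0.68 ± 0.22 at ZT12.2, edgeR adjusted p = 0.101) and Hlf (0.51 ± 0.22 at ZT19.6, edgeR adjusted p = 0.237) were not called. Their fitted peaks lay 11.8 h and 4.80 h from that of Nfil3. The later run alone, with 1 library for each time and 2 at ZT0, called none of the 4 genes in any condition. Its amplitudes were 1.301, 0.81, 0.34 and 0.76 for Dbp, Tef, Hlf and Nfil3 in control α cells and 1.40, 0.93, 0.67 and 1.06 in doxycycline α cells. In β cells they were 0.99, 0.63, 0.20 and 1.10 in controls and 0.72, 0.72, 0.87 and 1.02 after doxycycline. The earlier run lacks ZT0, and no rhythm was fitted in it alone. With 1 library left out at a time, the number of rhythmic genes lay between 179 and 1141 in control α cells (600 with all), 20 and 893 in control β cells (288), 41 and 560 in doxycycline α cells (375) and 112 and 2317 in doxycycline β cells (1576).

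**Figure D4:**
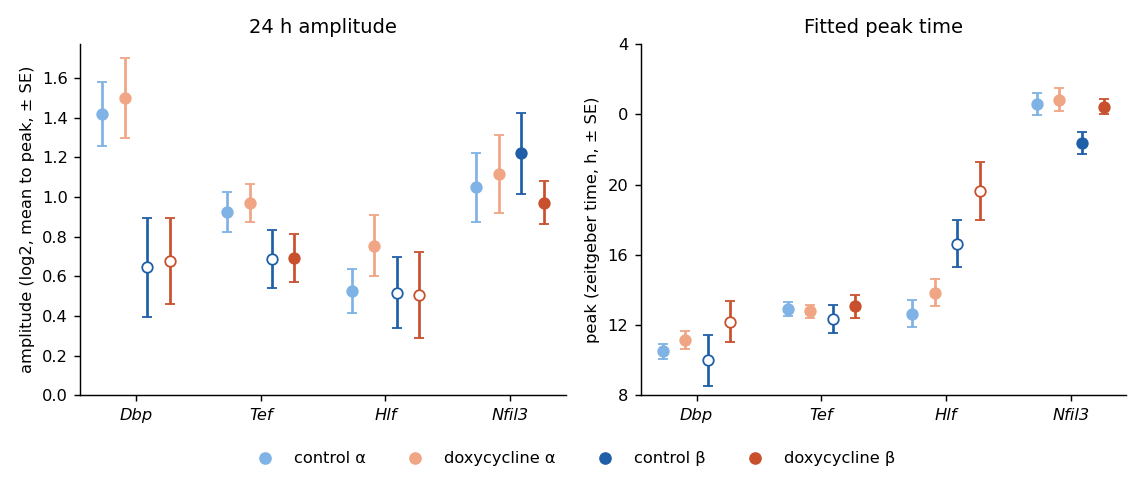
Amplitude (left, log2 units, mean to peak) and peak time (right, zeitgeber hours) of the fitted 24 h rhythm of each gene in the 4 conditions, with SE; open points have an edgeR adjusted p above 0.05. In the α cells of both treatments Dbp, Tef and Hlf peak between ZT10.5 and ZT13.9, and Nfil3 peaks between ZT22.4 and ZT0.83 in all 4 conditions.

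No difference of rhythm between conditions was called for any gene: 0% of 15188 genes for doxycycline in β cells, 0% of 14932 for doxycycline in α cells and 0% of 14945 for β against α cells in controls (edgeR, both interaction coefficients). At an unadjusted p below 0.05 there were 708, 377 and 946 genes, and DESeq2 called 3, 0 and 104, none of them among the 4 factors. For β against α cells in controls, 58 genes were called without replicate 2 of ZT20 of control β cells, also none of the 4. The fitted differences had wide intervals. Dbp had an amplitude lower by 0.76 in control β than in control α cells (95% interval -1.44 to -0.08, unadjusted p of the joint test 0.0764, edgeR adjusted p = 0.857). The Hlf peak lay 3.87 h later in control β than in control α cells (95% interval 0.35 to 7.40 h, edgeR adjusted p = 0.894), and that of Nfil3 2.17 h earlier (interval -4.23 to -0.11 h, edgeR adjusted p = 0.883). In β cells the Nfil3 peak lay 1.99 h later after doxycycline than in controls (95% interval 0.22 to 3.75 h, edgeR adjusted p = 0.999). For the activators in β cells the amplitude differed between treatments by -0.07 for Dbp (interval -0.81 to 0.68), -0.02 for Tef (-0.43 to 0.38) and -0.00 for Hlf (-0.62 to 0.61). Without the 2 control β libraries that stood apart these differences were -0.41 for Dbp (-1.13 to 0.32), -0.07 for Tef (-0.48 to 0.33) and 0.15 for Hlf (-0.48 to 0.78), and the Nfil3 peak lay 1.51 h later (-0.24 to 3.27 h). Between the control cell types the amplitude of Dbp was then lower by 0.33 in β cells (interval -1.05 to 0.39), and the peaks lay 0.75 h later for Hlf (-4.05 to 5.56 h) and 1.53 h earlier for Nfil3 (-3.73 to 0.67 h), so that all of these intervals held 0. In α cells the amplitude differences between treatments were 0.05 for Dbp (-0.53 to 0.62), 0.03 for Tef (-0.27 to 0.32) and 0.16 for Hlf (-0.27 to 0.59).

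Genes of the clock loop that drives the 4 factors, and clock genes with D boxes that they act on, were read in the same fits. Every member of the D box list also belongs to the list of the clock loop. In β cells after doxycycline, 23.1% of all genes tested were lower and 23.8% higher. Of 7 tested D box clock genes 4 were lower and 0 higher, with a median log2 fold change of -0.39 against -0.01 over all genes. Per3, a period gene, changed by -1.16 ± 0.23 (edgeR adjusted p = 0.000386), as much as Dbp and Hlf, and Rora, a RORE activator, by -0.39 ± 0.08 (edgeR adjusted p = 0.000423). The REV-ERB genes Nr1d2 (-0.60 ± 0.14, edgeR adjusted p = 0.00133) and Nr1d1 (-0.997 ± 0.31, edgeR adjusted p = 0.0122) were lower as well. Of 15 tested genes of the clock loop 8 were lower and 2 higher (median -0.39). Cry2, a repressor of CLOCK and BMAL1, changed by -0.51 ± 0.09 (edgeR adjusted p = 0.00015), and Bhlhe41, a repressor that binds E boxes, by -0.64 ± 0.13 (edgeR adjusted p = 0.000358). The 2 genes that were higher were Bhlhe40, an E box repressor (0.73, edgeR adjusted p = 0.0129), and Npas2, which can stand in for Clock (0.73, edgeR adjusted p = 0.0389), and neither was called within a run. Bhlhe40, Npas2 and Arntl were named after their values were seen. Arntl, whose product pairs with CLOCK, was at 0.03 ± 0.19 (edgeR adjusted p = 0.918).

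Without the 2 libraries that stood apart, 3 D box clock genes and 5 genes of the clock loop were lower, and Nr1d1 was no longer called (-0.73, edgeR adjusted p = 0.0825). In the later run alone these numbers were 1 and 3, and in the earlier run alone 4 and 6. In α cells, 0 of 8 D box clock genes and 0 of 16 genes of the clock loop were called by edgeR or DESeq2 after doxycycline (medians -0.05 and -0.04), and 0 had an unadjusted p below 0.05. The difference of the doxycycline effect between β and α cells was called for 3 of 8 D box clock genes and 5 of 16 genes of the clock loop, all with a lower value in β cells. These numbers were 0 and 0 in the later run alone, 2 and 4 in the earlier, and 3 and 5 both without the 2 libraries and with the macrophage covariate. Over all genes tested, 12.8% were called with a lower value in β cells and 12.7% with a higher one.

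In control mice 34.2% of all genes tested were higher in β than in α cells and 37.3% lower. Of the lists, 4 of 7 D box clock genes and 9 of 15 genes of the clock loop were higher and none was lower. Their medians were 0.36 and 0.41, against -0.03 over all genes. Without the 2 libraries that stood apart 3 and 8 were higher and 1 was lower, Rorb, which passed the filter on low counts only then (-2.28, edgeR adjusted p = 0.000372), and Per2 was no longer called (edgeR adjusted p = 0.0699). Rorb and Per2 were named after their values were seen. The largest signals by p were Bhlhe40 (log2 fold change 2.99 ± 0.15), Ciart (4.71 ± 0.41) and Bhlhe41 (0.86 ± 0.10), with Rora at 0.36 ± 0.05. Nr1d1, like Dbp an E box gene, was higher by 2.70 ± 0.44 (edgeR adjusted p = 1.21e-05). Rhythms were called for 6 of 7 D box clock genes in control α cells, 5 of 7 in doxycycline α cells and 4 of 7 in β cells of each treatment. Without the 2 libraries that stood apart 0 were called in control β cells, and in the later run alone 1 was called in control α cells and 0 in each of the other conditions. Over all genes tested, with all libraries, the shares were 4.49% in control α, 2.82% in doxycycline α, 2.17% in control β and 11.6% in doxycycline β cells. Arntl peaked close to Nfil3 in control α cells (ZT0.6, amplitude 1.34), doxycycline α cells (ZT0.4, 1.40), control β cells (ZT22.8, 1.38) and doxycycline β cells (ZT1.2, 1.19). Nr1d1 peaked at ZT9.0 with an amplitude of 1.72 in control α cells (edgeR adjusted p = 3.12e-05) and had a fitted amplitude of 0.13 in control β cells (edgeR adjusted p = 0.963). That value rests on the 2 libraries that stood apart, in which Nr1d1 was at 466 and 511 CPM: without them the amplitude was 0.70 with a peak at ZT6.63 (edgeR adjusted p = 0.769), and Arntl was at 1.43 (edgeR adjusted p = 0.0572).

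**Figure D5:**
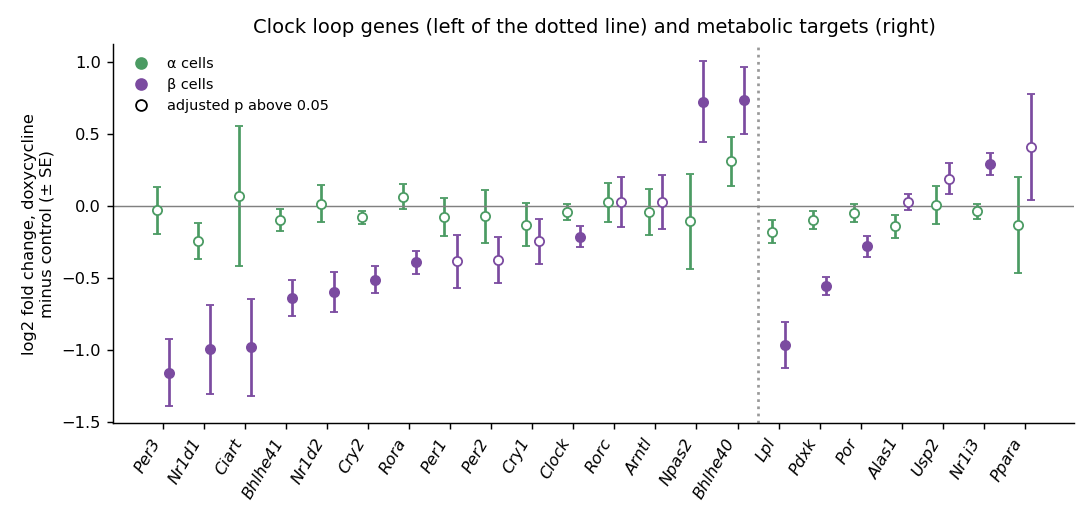
Log2 fold change (doxycycline minus control, ± SE) of the tested genes of the clock loop and of the metabolic targets in α and β cells; open points have an edgeR adjusted p above 0.05. In β cells Per3, Nr1d1 and Ciart stand lowest among the clock genes, and no α value is filled.

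The list of metabolic genes known as targets of the PAR bZIP factors in liver holds 12 genes, of which 7 were measured well enough to be tested in β cells. After doxycycline 3 of the 7 were lower and 1 higher in β cells, and the median was 0.03, where 23.1% of all genes tested were lower and 23.8% higher. In the later run alone 2 were lower and 0 higher, and with the macrophage covariate 2 and 1. Pdxk, the kinase that forms active vitamin B6, changed by -0.55 ± 0.06 (edgeR adjusted p = 7.32e-07), and Lpl, lipoprotein lipase, by -0.97 ± 0.16 (edgeR adjusted p = 4.94e-05). Por, the electron donor of cytochrome P450 enzymes, changed by -0.28 ± 0.07 (edgeR adjusted p = 0.00355). Nr1i3, the xenobiotic receptor CAR, was higher by 0.29 ± 0.08 (edgeR adjusted p = 0.00377). Pdxk had a mean of 73.3 ± 15.3 CPM in control and 48.9 ± 9.95 CPM in doxycycline β cells, and Lpl 58.7 ± 37.4 CPM and 27.9 ± 13.2 CPM. Lpl lies far higher in α cells, at 381 ± 159 CPM in controls, and had its highest fitted value there near dawn (ZT3.1, amplitude 0.85), away from the peaks of the activators. In α cells 0 of 7 metabolic targets were called by edgeR or DESeq2 after doxycycline (median -0.10), and 1, Lpl, had an unadjusted p below 0.05.

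C/EBP proteins are basic leucine zipper factors whose binding sites resemble the D box. Of 5 tested genes of this group 1 was higher and 1 lower in β cells after doxycycline. Over all genes tested 23.8% were higher and 23.1% lower. Cebpa, a factor of myeloid cells as well as of liver, rose from 1.55 ± 0.65 CPM to 5.70 ± 3.27 CPM (log2 fold change 1.83 ± 0.28, edgeR adjusted p = 2.72e-05), and with the macrophage markers as a covariate it was at 0.24 (edgeR adjusted p = 0.459). The source of the Cebpa rise was not tested. Cebpb changed by -0.33 ± 0.12 (edgeR adjusted p = 0.0297), a call lost without the 2 libraries that stood apart (-0.30, edgeR adjusted p = 0.0766) and with any of several single libraries left out. Cebpd and Cebpg, at -0.34 ± 0.16 and -0.11 ± 0.06, were not called. In α cells 0 of 5 were called by edgeR or DESeq2, and 0 had an unadjusted p below 0.05.

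Time patterns were compared over the 24 groups, after removing the run and the mean of each condition, as a description: the points share libraries, and their main axis is the time of day. The activators ran together, with a Pearson r of 0.85 between Dbp and Tef, 0.67 between Tef and Hlf and 0.57 between Dbp and Hlf. Nfil3 ran opposite to them, at -0.91 with Tef, -0.84 with Dbp and -0.43 with Hlf. Of 12073 genes with at least 1 CPM in every condition, the closest to Dbp were the kinase Pim3 (r = 0.95), Nr1d2 (0.91), Atg13 (0.91), Zkscan17 (0.90) and Slc37a4 (0.88), and the most opposite Smap2 (-0.87), Tspan15 (-0.87) and Fam84a (-0.87). The closest to Tef were Cry2 (0.92), Per3 (0.91), Nr1d2 (0.90), Fkbp5 (0.90) and the nuclear receptor Rxra (0.89), and the most opposite Arntl (-0.94), Nfil3 (-0.91) and Gtf2b (-0.90). The closest to Nfil3 were Arntl (0.97), Fam84a (0.95), Leo1 (0.92), Kyat3 (0.91) and Smap2 (0.90), and the most opposite, after Tef, were Rxra (-0.90) and Nr1d2 (-0.89). Hlf had weaker companions: Bhlhe41 (0.90), Zbtb10 (0.82), Nfkbil1 (0.81), Maff (0.80) and Tbc1d15 (0.77), with Fam135a (-0.83) and Syt3 (-0.78) opposite. All these patterns include the 2 control β libraries that stood apart, where Hlf was at 67.3 and 63.9 CPM, and were not computed without them. Clock genes thus stood among the nearest patterns of each of the 4 factors.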

How the data were processed

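The deposited values are estimated counts per gene, 1 table per sequencing run, with no scaling for depth. Per the submitters' processing notes bcl2fastq and STAR were used with the GRCm38 genome. The counting program is not given in the sources used here. Per the labels' protocols, libraries were made from polyA RNA with a kit that does not mark strand, so reads of overlapping antisense genes cannot be told apart. Deposited RPKM values were not used. All 48 columns matched a label, and 0 columns were left over.

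Estimated counts were rounded, scaled by TMM factors, filtered with filterByExpr (minimum count 10, minimum total 15) and compared in edgeR 4.0.16 (R 4.3.3) by its quasi-likelihood test, with Benjamini-Hochberg adjustment over all genes and a threshold of 0.05. Levels are CPM, and log2 CPM used a prior count of 2. Level comparisons had time and run as terms, rhythms a cosine, a sine and the run. SEs of fold changes are their size over the square root of F, and those of amplitudes and peaks come from the delta method. DESeq2 1.42.0, other filters and scalings, each run alone, a macrophage covariate, replicate blocks and each library left out were alternatives. The 2 control β libraries were set aside, and the ZT0 numbers crossed, as alternatives chosen after seeing the data.

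The members and lists were chosen with earlier results of these data known. The genes named besides the 4 are up to 4 per list with the lowest p, and for each factor the 5 most alike and 3 most opposite in time pattern, of which 1 for Hlf is not reported here. Known changes in simulated counts, made without a run effect, were recovered for doxycycline in β cells and for rhythms in control α and control β cells. The other comparisons were not simulated. Replicate libraries differed by more than sampling noise in all 24 groups (χ² divided by its degrees of freedom 18.7 to 89.2). Deviations of same-numbered α and β libraries ran together at all 6 times in doxycycline mice (r 0.26 to 0.58). In control mice r was 0.32 to 0.48 from ZT0 to ZT16 and 0.07 at ZT20. From ZT4 to ZT20 the numbers also divide the runs, and at ZT0 the lanes. This check therefore cannot show a pairing, and the labels state none. A block on time and replicate number changed no call of the 4 genes between the cell types of doxycycline mice.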

Additional observations from a re-analysis of the deposited data

Results flagged for a closer look

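The doxycycline effect differed between β and α cells for Dbp, Tef and Hlf when the difference itself was tested in edgeR. On the log2 scale the effect in β cells minus that in α cells was -0.997 for Dbp, -0.67 for Tef and -0.98 for Hlf. Matched by time and replicate number, which the labels do not give as a pairing, the doxycycline library was lower in 10, 11 and 10 of 12 β-cell matches. In α cells it was lower in 6, 9 and 8 of 12. Such counts were not taken over all genes. Within a single run none of these differences passed the threshold. With the macrophage and dendritic cell markers, which were higher in doxycycline β cells, as a covariate they were -1.25, -0.85 and -1.05.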

How the results depend on the processing

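Of 1496 values of the 4 genes under alternatives, 1404 kept their direction and side of the threshold, 60 lost a call, 13 gained one and 19 turned their direction, in each case without a call before or after. Where a run is taken alone or a library left out there are fewer samples by construction; otherwise the cause was not tested. β against α cells in controls: Hlf was called in the later run (-0.40) and without the 2 libraries that stood apart (-0.41), and Nfil3 in the earlier run (1.01) and without a low-count filter (0.43). The 2 libraries had been set apart partly by their high Hlf, so the value without them is lower by construction. The doxycycline effect in β minus α cells was not called within a run: -0.80 and -1.19 for Dbp, -0.61 and -0.71 for Tef, -0.99 and -1.01 for Hlf (later, then earlier run). Values that turned sign were Hlf between control cell types in the earlier run (0.13), Tef between doxycycline cell types in the later run (-0.063), where genes had to reach a mean of 1 CPM (-0.014), and in 7 of 24 cases with a library left out (-0.055 to 0.065 over the 24), Nfil3 after doxycycline in α cells in the later run (-0.0040) and the Nfil3 difference of effects in the earlier run (-0.13). For the rhythm difference between treatments in α cells the joint size was 0.31 for Nfil3 in the later run and, with a library left out, 0.071 to 0.27 for Nfil3 and 0.017 to 0.16 for Tef. After doxycycline in β cells Arntl was at -0.0077 in the later run and at -0.075 to 0.10 with a library left out, and Cebpg at 0.025 in the later run.

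Rhythm amplitudes that lost their call in the later run alone were 1.301 (Dbp), 0.81 (Tef), 0.34 (Hlf) and 0.76 (Nfil3) in control α cells, 1.40, 0.93, 0.67 and 1.06 in doxycycline α cells, 1.10 (Nfil3) in control β cells, and 0.72 (Tef) and 1.02 (Nfil3) in doxycycline β cells. With time as a factor, calls were lost for Hlf (0.54) and Nfil3 (1.27) in control α cells, Nfil3 (1.34) in control β cells, and Tef (0.82) and Nfil3 (1.03) in doxycycline β cells. Nfil3 in control β cells also lost its call without a run term (1.13) and without the 2 libraries (1.24), and Hlf in doxycycline α cells without a run term (0.76) and with a mean of at least 1 CPM (0.76). Tef in control β cells gained a call without a low-count filter (0.69), with DESeq2 (0.69) and with the replicate block (0.74). Leaving out single libraries changed calls of Nfil3 between the control cell types (0.33 to 0.54) and of these amplitudes: control α Hlf 0.42 to 0.57 and Nfil3 0.89 to 1.21, control β Tef 0.55 to 0.79 and Nfil3 1.07 to 1.32, doxycycline α Hlf 0.63 to 0.94 and Nfil3 0.94 to 1.35, doxycycline β Tef 0.59 to 0.76.

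Numbers of genes called moved more than those of the 4 factors. For doxycycline in β cells 7122 were called, against 3747 and 4638 in the later and earlier run and 3861 with the macrophage covariate. In α cells 19 were called, against 0 in the later run, 132 in the earlier, 125 with DESeq2, 56 without a filter, 12 without a run term, 2 with the covariate and 9 to 35 with a library left out. The difference of the effects was called for 4126 genes, and for 1243 and 2139 within the runs. Rhythmic genes numbered 600, 288, 375 and 1576 in control α, control β, doxycycline α and doxycycline β cells, against 1518, 1317, 1178 and 3014 with DESeq2 1, 0, 0 and 0 in the later run, 73, 33, 14 and 0 with time as a factor, and 179 to 1141, 20 to 893, 41 to 560 and 112 to 2317 with a library left out. Without a run term they were 344 in control α, 166 in doxycycline α and 328 in doxycycline β cells, the last 831 without a filter, and in control β cells 2 without the 2 libraries. Rhythm differences, 0 with the main settings, were called for 1, 1 and 3 genes without a filter (doxycycline in β, in α, and control cell types), 3 (β) and 104 (cell types) with DESeq2, 1 (cell types) with the replicate block, and 0 to 1 (β) and 0 to 58 (cell types) with a library left out. Numbers shared by libraries do not show a pairing. Control and doxycycline libraries had r of -0.53 (α) and -0.43 (β) at ZT0, and the lowest r from ZT4 to ZT20 was 0.06. The replicate block within time gave 6862 genes for doxycycline in β and 7 in α cells. With the ZT0 numbers crossed these were 7013 and 42. In the rhythm of doxycycline β cells the replicate block gave 688.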
